A study of Mus musculus with 24 samples.

Results

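The heparan sulfate enzymes described here are 10 genes, taken by gene name from the table of normalised counts of 24 mouse frontal cortex libraries, out of 57180 genes in that table. They are the chain polymerase Ext1, the N-deacetylase/N-sulfotransferases Ndst1 and Ndst3, the 2-O-sulfotransferase Hs2st1, the 6-O-sulfotransferases Hs6st1, Hs6st2 and Hs6st3, and the 3-O-sulfotransferases Hs3st1, Hs3st2 and Hs3st4. The genes were chosen by name as a pathway. The pathway was selected on the group differences of normalised counts in these same libraries, among them that of Hs6st3 between sarcosine and vehicle. The differences between groups are therefore given for its members as a description. The number of members under the threshold used for all genes is printed for each comparison and, at the end, for the alternatives. Nothing is read from it. All mice were wild-type C57BL/6 males, 4 weeks old, injected intraperitoneally each day for 28 days. The 4 groups of 6 libraries received vehicle, sarcosine at 100 mg/kg, memantine at 20 mg/kg, or both drugs at these doses, here called the combination. Sarcosine is N-methylglycine, which inhibits the glycine transporter GlyT1, and memantine blocks the ion channel of the NMDA receptor, for which glycine is a co-agonist. The study asked what sarcosine changes in gene expression and whether memantine alters it. RNA came from frozen brain punches, and the labels do not say whether each library came from a separate mouse.

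Heparan sulfate is a long sugar chain carried by syndecans, glypicans and other core proteins on the cell surface and in the extracellular matrix. The exostosins build the chain in the Golgi from alternating glucuronic acid and N-acetylglucosamine. N-deacetylase/N-sulfotransferases then exchange acetyl groups for sulfate, an epimerase converts part of the glucuronic acid to iduronic acid, and the 2-O-, 6-O- and 3-O-sulfotransferases add sulfate at defined positions. The resulting pattern sets which growth factors, guidance cues and synaptic adhesion proteins a chain binds, and in the brain heparan sulfate takes part in axon guidance and in the assembly of synapses.

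Promoter windows from RefSeq on the GRCm38.p6 build, 300 bases each, from 250 bases before to 50 bases after the start of a gene, were found for 8 of the 10 members, in 10 windows. Those of the 6-O-sulfotransferases are shown because this family holds the member with the largest difference between groups, Hs6st3, and a pair of members, Hs6st1 and Hs6st2, whose levels ran opposite to each other across libraries. Capitals mark the GC box GGGCGG and the CRE half-site TGACG, each searched on both strands; the E-box CACGTG was searched too.
Hs6st1, chr1:36068150-36068449, plus strand: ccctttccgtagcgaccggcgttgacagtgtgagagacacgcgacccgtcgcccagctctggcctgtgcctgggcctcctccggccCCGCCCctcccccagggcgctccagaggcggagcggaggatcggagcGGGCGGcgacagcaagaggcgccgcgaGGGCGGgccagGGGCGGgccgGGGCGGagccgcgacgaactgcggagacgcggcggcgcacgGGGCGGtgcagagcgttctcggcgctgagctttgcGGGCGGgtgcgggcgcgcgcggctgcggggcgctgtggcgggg
Hs6st2, first window, chrX:51681553-51681852, minus strand: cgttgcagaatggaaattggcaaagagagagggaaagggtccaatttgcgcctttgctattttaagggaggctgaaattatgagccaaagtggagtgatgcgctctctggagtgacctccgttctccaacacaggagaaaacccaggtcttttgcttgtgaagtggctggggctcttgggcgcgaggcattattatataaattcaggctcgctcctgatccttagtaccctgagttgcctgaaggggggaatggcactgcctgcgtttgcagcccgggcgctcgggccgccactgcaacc
Hs6st2, second window, chrX:51680428-51680727, minus strand: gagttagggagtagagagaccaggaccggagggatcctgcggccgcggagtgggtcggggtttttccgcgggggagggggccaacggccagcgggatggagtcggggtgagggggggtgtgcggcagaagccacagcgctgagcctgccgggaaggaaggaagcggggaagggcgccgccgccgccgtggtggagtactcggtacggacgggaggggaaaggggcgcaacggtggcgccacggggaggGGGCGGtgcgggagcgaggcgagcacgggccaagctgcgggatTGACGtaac
Hs6st3, chr14:119138015-119138314, plus strand: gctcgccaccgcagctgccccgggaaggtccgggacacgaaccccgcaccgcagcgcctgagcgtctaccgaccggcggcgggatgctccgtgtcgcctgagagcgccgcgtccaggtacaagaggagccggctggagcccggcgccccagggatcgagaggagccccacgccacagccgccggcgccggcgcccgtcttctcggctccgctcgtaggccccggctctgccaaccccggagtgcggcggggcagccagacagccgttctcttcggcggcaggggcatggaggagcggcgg
The Hs6st1 window held 47 CpG dinucleotides, a GC content of 78% and 7 GC boxes. The Hs6st3 window was nearly as rich, with 41 CpG dinucleotides and a GC content of 75.3%, but held none of the 3 motifs. The windows of Hs6st2 differed from each other, with 12 CpG dinucleotides and no motif in the first against 33, 1 GC box and 1 CRE half-site in the second. Over all 32544 mouse promoter windows of this length the median was 7 CpG dinucleotides and a GC content of 53%, and 35.9% held a GC box, 20.9% a CRE half-site and 7.17% the E-box. A match of letters is not a shown binding site.

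The libraries held 12678114 to 21844579 reads assigned to genes. Sarcosine libraries were the deepest, at 17008198 to 21844579 reads, and combination libraries held 14700861 to 15653093. The frontal cortex label was checked against markers of cortical neurons (Slc17a7, Tbr1, Neurod6, Neurod2, Cux2 and Rorb among them): all 7 were detected in every library, but their summed level ran from 6445 to 57114 normalised counts, so the punches held unequal amounts of cortical RNA. The summed level of 8 striatal neuron markers ran from 3961 to 34058. It reached 9693 at most in vehicle, 34058 in sarcosine, 12321 in memantine and 16980 in the combination. Olfactory bulb markers summed to between 279 and 7137, and choroid plexus markers to between 47.5 and 55956. Myelin markers summed to between 29645 and 297250, astrocyte markers to between 15442 and 26853, microglial markers to between 4355 and 6587, endothelial markers to between 2053 and 3762, interneuron markers to between 12982 and 29602, deep-layer markers to between 2005 and 3688, and leptomeningeal and mural markers to between 546 and 3442; no marker was at 0 throughout a group. The mitochondrial share of reads was 4.79 ± 0.56% in vehicle, 3.96 ± 0.35% in sarcosine, 4.23 ± 0.48% in memantine and 4.08 ± 0.35% in the combination (SD, n = 6). The part of depth and of this share in the results was not tested. A marker score is the mean log2 deviation of the markers of a list from their 24-library average. In 4 libraries the cortical score was under -1 or the choroid plexus score was over 4. The libraries that stood apart in this way were sarcosine replicates 1 and 4, memantine replicate 3 and combination replicate 1. Some log2 differences that rest on them are given below without them too, while summed levels and shares are not. In such tissue samples fewer cells of a type and less RNA per cell cannot be told apart.

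All 10 members passed the filter of at least 10 normalised counts in at least 6 libraries. Per kilobase of their longest annotated transcript, the 3-O-sulfotransferases Hs3st2 and Hs3st4 had the highest levels, at 487 ± 114 and 455 ± 99.0 normalised counts per kilobase (mean ± SD, n = 24). Ndst1 followed at 362 ± 45.5, then Hs6st1 at 272 ± 44.6, Hs6st2 at 260 ± 52.6, Hs2st1 at 200.5 ± 20.3, Hs3st1 at 162 ± 47.1, Ext1 at 145 ± 33.2 and Ndst3 at 102 ± 30.1. Hs6st3 was the lowest, at 44.0 ± 18.1 normalised counts per kilobase. Some neighbours in this order could not be separated: Hs3st2 exceeded Hs3st4 in 17 of 24 libraries, Hs6st1 exceeded Hs6st2 in 15, and Hs3st1 exceeded Ext1 in 13. Ndst1 exceeded Hs6st1 in 23 libraries, Ext1 exceeded Ndst3 in all 24, and Ndst3 exceeded Hs6st3 in 23. The steadiest members over the libraries were Hs2st1 and Ndst1, whose highest library was 1.46 and 1.63 times the lowest, and the most variable were Hs6st3 and Ndst3, at 4.61 and 4.19 times. Exons of Hs3st2, Hs3st4 and Hs6st1 overlap an annotated predicted gene on the opposite strand, and whether counting used strand is not given in the sources used here, so part of their counts is uncertain.

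**Figure D1:**
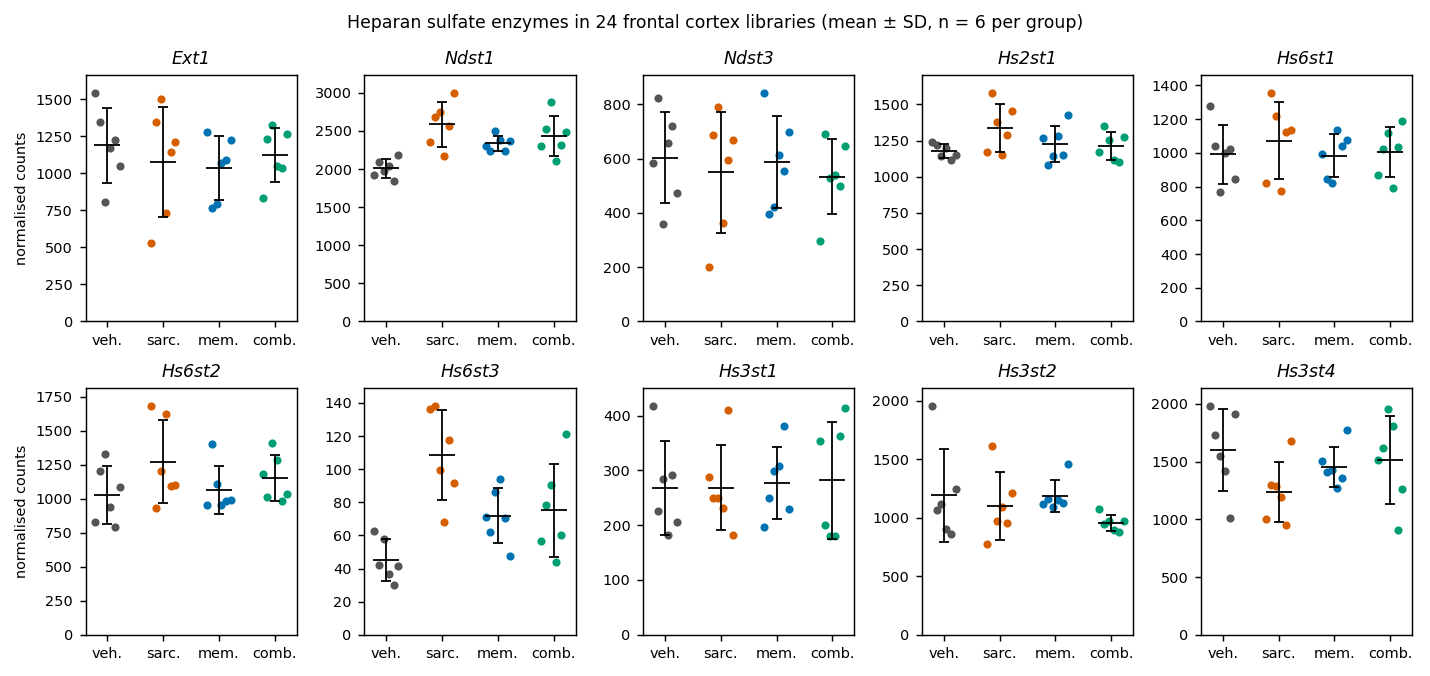
Normalised counts of the 10 enzymes (vertical axes, each from 0) in the 4 groups (horizontal axes); each point is a library, and bars give the mean ± SD of 6 libraries. In Hs6st3 every sarcosine library lies above every vehicle library, the means of the other groups lie between, and Ext1 and Ndst3 have their lowest values in sarcosine replicate 1.

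All 16578 genes were tested together (limma, Benjamini-Hochberg), and 9.34% had an adjusted p under 0.05 between sarcosine and vehicle. Among the 10 members 2 were under that threshold, Hs6st3 and Ndst1, both with higher levels under sarcosine; since the pathway was selected on this comparison, that count is no test of them. No member was under it in the other comparisons, in which fewer genes were: 0.0121% for memantine against vehicle, 0.543% for the combination against vehicle, 0% for the combination against sarcosine and 0.0543% for the combination against memantine. For the interaction, the effect of sarcosine in memantine-treated mice minus its effect without memantine, 1.82% of genes and no member were under it. The 0 genes for the combination against sarcosine came from limma, with 1443 genes at an unadjusted p under 0.05; edgeR called 0 and DESeq2 called 45. The median log2 difference of the members between sarcosine and vehicle was 0.06, beside -0.0032 over all genes, and 6 of the 10 were above 0.

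Hs6st3, which adds sulfate at the 6-O position of glucosamine, had the largest difference of the family. In vehicle its normalised counts were 62.6, 42.1, 57.6, 36.9, 29.9 and 41.4, a mean of 45.1 ± 12.5 (SD, n = 6). In sarcosine they were 137, 138, 99.4, 68.4, 118 and 91.7, a mean of 109 ± 27.3. The lowest sarcosine library was therefore above the highest vehicle library, a separation that 4.11% of all genes showed in either direction. The log2 difference was 1.25 (SE 0.23, 95% interval 0.77 to 1.73).

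Memantine libraries had 71.1, 61.8, 86.0, 94.2, 70.4 and 47.6 normalised counts of Hs6st3, a mean of 71.9 ± 16.7, and 4 of 6 lay above all vehicle libraries. Combination libraries had 56.3, 78.3, 90.2, 44.2, 60.2 and 121, a mean of 75.0 ± 27.8, and 3 of 6 lay above all vehicle libraries. Both groups thus overlapped vehicle and sarcosine. The log2 difference from vehicle was 0.67 (95% interval 0.19 to 1.15) for memantine and 0.69 (0.21 to 1.17) for the combination; these comparisons share the vehicle libraries with the first. The combination was lower than sarcosine alone by a log2 difference of -0.56 (-1.04 to -0.09) and differed from memantine alone by 0.02 (-0.46 to 0.50). The interaction was -1.24 (-1.91 to -0.56). The comparison with sarcosine and the interaction both use the sarcosine libraries, whose high Hs6st3 level was part of the selection. Neither is therefore a test of what memantine does to the sarcosine difference.

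The other members of the 6-O family set the scale for this gene. Hs6st1 had a mean of 991 ± 175 normalised counts in vehicle, 1072 ± 228 in sarcosine, 984 ± 125 in memantine and 1003 ± 149 in the combination, with overlap in every comparison. The log2 difference of Hs6st1 between sarcosine and vehicle was 0.10 (95% interval -0.18 to 0.39), and 0.30 without the 4 libraries that stood apart. Hs6st2, on the X chromosome, had 1029 ± 213, 1272 ± 306, 1066 ± 175 and 1152 ± 171 in the same order. Its log2 difference between sarcosine and vehicle was 0.30 (95% interval -0.01 to 0.61), and 2 of 6 sarcosine libraries, replicates 1 and 4 at 1681 and 1621, lay above all vehicle libraries. These are also the libraries with the lowest cortical marker scores, and without the 4 libraries that stood apart the difference was 0.09. Per kilobase, Hs6st3 made up 4.94 ± 1.12% of the summed 6-O-sulfotransferase level in vehicle, 9.82 ± 2.20% in sarcosine, 7.64 ± 1.78% in memantine and 7.48 ± 2.23% in the combination. The summed level of the 3 genes was 529.5 ± 41.9 normalised counts per kilobase in vehicle and 644 ± 29.7 in sarcosine, with the highest vehicle library at 580.1 and the lowest sarcosine library at 612.1. Of single genes 4.11% were separate in that comparison, and the sum includes Hs6st3, on which the pathway was selected. Means per kilobase in vehicle and sarcosine were 266.5 and 288.3 for Hs6st1, 236.5 and 292.3 for Hs6st2, and 26.4 and 63.6 for Hs6st3. The sum was not taken without the 4 libraries that stood apart. In memantine and the combination the sum was 552 ± 25.5 and 578 ± 60.2.

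**Figure D2:**
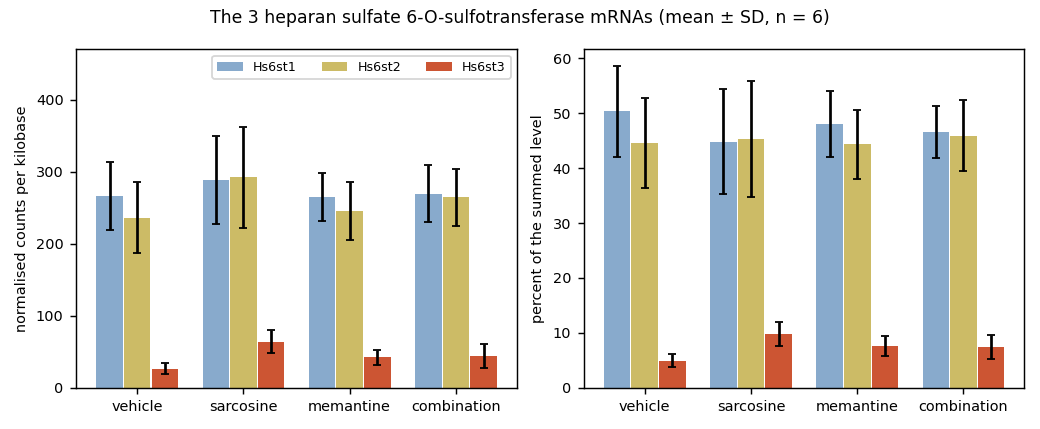
Left, level of the 6-O-sulfotransferases Hs6st1, Hs6st2 and Hs6st3 in normalised counts per kilobase of transcript; right, each gene as a percent of the summed level; bars are means and error bars SDs of 6 libraries per group. Hs6st3 stays the smallest part in every group, at 4.94% in vehicle and 9.82% in sarcosine, beside Hs6st1 and Hs6st2 at about the same level as each other.

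Ndst1, the main N-deacetylase/N-sulfotransferase by level, had 1919, 2096, 1971, 2037, 1840 and 2188 normalised counts in vehicle, a mean of 2008 ± 125 (SD, n = 6). In sarcosine it had 2356, 2685, 2754, 2170, 2564 and 3000, a mean of 2588 ± 295. Only sarcosine replicate 4 fell within the vehicle range, below vehicle replicate 6. The log2 difference was 0.36 (SE 0.07, 95% interval 0.21 to 0.51). Memantine libraries, at 2233 to 2494 with a mean of 2337 ± 101, all lay above the vehicle libraries, a separation found for 2.2% of genes in that comparison. Combination libraries, at 2103 to 2882 with a mean of 2434 ± 266, lay above all vehicle libraries in 5 of 6 cases. The log2 difference from vehicle was 0.22 (0.07 to 0.37) for memantine and 0.27 (0.12 to 0.43) for the combination. The combination differed from sarcosine alone by -0.09 (-0.24 to 0.07), and the interaction was -0.31 (-0.52 to -0.09). Both use the sarcosine libraries, on which the pathway was selected, and are given as a description.

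The size of the Ndst1 difference moved with how transcript length was handled. Its longest annotated transcript has 6478 bases, against 1708 for Hs6st3. Across all genes, the log2 deviation of a library from the 24-library mean changed with transcript length. Per unit of log10 length the change was -0.23 ± 0.10 in vehicle and 0.18 ± 0.15 in sarcosine (SD, n = 6). In memantine it was 0.06 ± 0.07 and in the combination -0.02 ± 0.18. Long transcripts thus stood relatively lower in vehicle than in each drug group, and highest in sarcosine. With the trend on length and GC content removed from each library, the sarcosine difference of Ndst1 was 0.21, against 0.36 before. That of Hs6st3 was 1.41, against 1.25. The Ndst1 difference from vehicle became 0.11 for memantine and 0.17 for the combination, against 0.22 and 0.27 before. Its interaction became -0.15, against -0.31 before. With the 4 regional marker scores as covariates the sarcosine differences were 0.43 for Ndst1 and 1.21 for Hs6st3. Without the 4 libraries that stood apart they were 0.45 and 1.32.

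Ndst3, a brain-enriched member of the same family, had 603 ± 168 normalised counts in vehicle, 550 ± 223 in sarcosine, 587 ± 169 in memantine and 534 ± 138 in the combination. Sarcosine replicate 1 had the lowest value, 201, and memantine replicate 1 the highest, 842. Its log2 difference between sarcosine and vehicle was -0.22 (95% interval -0.81 to 0.37), and without the 4 libraries that stood apart it was 0.23. Per kilobase, Ndst1 made up 58.3 ± 7.10% of the summed level of Ndst1, Ndst2, Ndst3 and Ndst4 in vehicle and 65.6 ± 5.85% in sarcosine. Ndst3 made up 19.9 ± 3.81% and 15.6 ± 4.70%. These shares were taken neither without the 4 libraries that stood apart nor after the correction for length and GC content.

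Ext1, which forms the chain polymerase together with Ext2, had 1191 ± 253 normalised counts in vehicle, 1079 ± 374 in sarcosine, 1038 ± 215 in memantine and 1126 ± 183 in the combination. Its lowest library was sarcosine replicate 1 at 531 and its highest was vehicle replicate 1 at 1545. The log2 difference between sarcosine and vehicle was -0.20 (95% interval -0.64 to 0.23), and 0.15 without the libraries that stood apart. Hs2st1, the only 2-O-sulfotransferase for heparan sulfate, had 1179 ± 49.3, 1337 ± 167, 1225 ± 125 and 1212 ± 97.4 normalised counts in vehicle, sarcosine, memantine and the combination. In 4 of 6 sarcosine libraries it lay above all vehicle libraries. Its log2 difference between sarcosine and vehicle was 0.17 (0.01 to 0.33); it was 0.01 after correction for transcript length and GC content, and 0.27 without the libraries that stood apart.

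The 3-O-sulfotransferases add the rarest modification of the chain. Hs3st1 had 268 ± 84.9, 268 ± 77.6, 277 ± 66.0 and 282 ± 106 normalised counts in vehicle, sarcosine, memantine and the combination, and ranged from 179 to 417 over the libraries. Its log2 difference between sarcosine and vehicle was 0.01 (95% interval -0.48 to 0.51), which holds changes of either sign. Hs3st2 had 1193 ± 398, 1104 ± 289, 1184 ± 136 and 955 ± 71.6 in the same order. All 6 combination libraries, at 875 to 1078, lay below all 6 memantine libraries, at 1093 to 1457, a separation that 0.531% of genes showed in that comparison; the log2 difference was -0.31 (-0.64 to 0.03). Hs3st4 had 1603 ± 357, 1236 ± 261, 1456 ± 173 and 1512 ± 382, and its log2 difference between sarcosine and vehicle was -0.37 (-0.72 to -0.01), with 2 of 6 sarcosine libraries below all vehicle libraries. With regional scores as covariates that difference was -0.17, and that of Hs3st2 between sarcosine and vehicle moved from -0.09 to 0.31. No member had separate groups for the combination against vehicle or against sarcosine, where 1.15% and 0.386% of genes did.

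**Figure D3:**
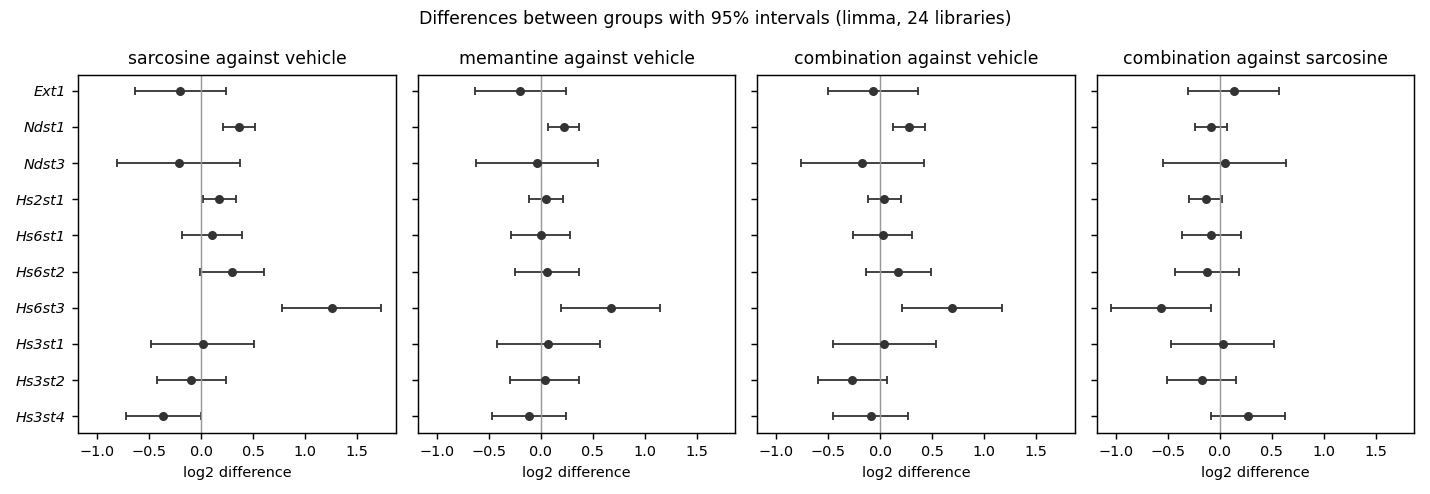
Log2 differences (horizontal axes) of the 10 enzymes in 4 comparisons, with points for the estimate and bars for the 95% interval from one limma model of 24 libraries. Hs6st3 at 1.25 and Ndst1 at 0.36 lie farthest to the right of 0 for sarcosine against vehicle, relative to their intervals, and the intervals of most other members include 0.

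The levels of 7 of the 10 members followed the regional make-up of the punches. With group means removed, 40 relations between the 10 members and 4 regional marker scores were tested by permutation within groups, with Benjamini-Hochberg adjustment over the 40; 16 passed an adjusted p of 0.05 by Pearson's r and 15 by Spearman's rho. The labels give no batch, so none could be examined separately. Ext1 followed the cortical neuron score most closely, with r = 0.94 (permutation p = 1e-05, the smallest that 100000 permutations can give; adjusted p = 0.00013) and rho = 0.88 (adjusted p = 0.0002). Without the 2 libraries farthest from the median score, r was 0.90. Ndst3 followed it with r = 0.88 (permutation p = 2e-05, adjusted p = 0.00016), rho = 0.79 (adjusted p = 0.0008) and r = 0.79 without the farthest libraries. For Hs6st1 r was 0.85 (permutation p = 1e-05, adjusted p = 0.00013), rho 0.81 (adjusted p = 0.0004), and r 0.84 without them. For Hs2st1 r was 0.79 (permutation p = 2e-05, adjusted p = 0.00016), rho 0.79 (adjusted p = 0.00027), and r 0.84 without them. Each of these 4 relations had the same sign within all 4 groups.

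Hs6st2 ran the other way. Its correlation with the striatal neuron score was r = 0.85 (permutation p = 1e-05, adjusted p = 0.00013), with rho = 0.85 (adjusted p = 0.0002) and r = 0.85 without the farthest libraries, and with the cortical score it was r = -0.82 (permutation p = 3e-05, adjusted p = 0.0002), with rho = -0.75 (adjusted p = 0.0008) and r = -0.76 without them. The pair of 6-O-sulfotransferases of similar level therefore moved in opposite directions with regional content, and their correlation with each other was r = -0.75 across the 24 libraries with group means removed, given as a description. Hs6st2 also followed the myelin score, with r = 0.76 (permutation p = 8e-05, adjusted p = 0.00036) and rho = 0.73 (adjusted p = 0.0008), and r was 0.83 without the farthest libraries. Ext1, Ndst3 and Hs6st1 had negative relations to both the striatal and the myelin score, with r from -0.70 to -0.80 (adjusted permutation p from 0.00029 to 0.0025) and rho from -0.54 to -0.74 (adjusted p from 0.0016 to 0.037), and r from -0.57 to -0.78 without the farthest libraries. The relation of Hs2st1 to myelin, r = -0.52 (permutation p = 0.020, adjusted p = 0.0497), did not pass by rho (-0.39, adjusted p = 0.19) or without the farthest libraries. The scores come from the same libraries and are not independent of each other.

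Of the 3-O-sulfotransferases, Hs3st1 and Hs3st4 followed the olfactory bulb score, and Hs3st2 passed with none of the scores. Hs3st1 rose with it, with r = 0.80 (permutation p = 1e-04, adjusted p = 0.0004), rho = 0.80 (adjusted p = 0.0008) and r = 0.75 without the farthest libraries. Hs3st4 fell with it, with r = -0.72 (permutation p = 0.00019, adjusted p = 0.00058), rho = -0.72 (adjusted p = 0.0016) and r = -0.61 without them. Hs6st3 and Ndst1 did not pass with any of the 4 scores. For Hs6st3 the r values were 0.06 with the cortical, -0.17 with the striatal, 0.32 with the olfactory bulb and -0.14 with the myelin score (adjusted permutation p from 0.32 to 0.81), and the rho values were 0.15, -0.27, 0.36 and -0.17 (adjusted p from 0.21 to 0.57). Without the 2 libraries farthest from the median of each score, r for Hs6st3 was 0.39, -0.39, 0.41 and -0.16 in the same order, so a relation of moderate size is not shown to be absent. The sarcosine libraries with the lowest cortical scores differed, with 137 normalised counts of Hs6st3 in replicate 1 (score -1.77) and 68.4 in replicate 4 (score -1.08), and replicate 2, with the highest score (0.73), had 138. For Ndst1 the r with the cortical score was 0.48 (permutation p = 0.0502, adjusted p = 0.11), with rho = 0.47 (adjusted p = 0.091).

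**Figure D4:**
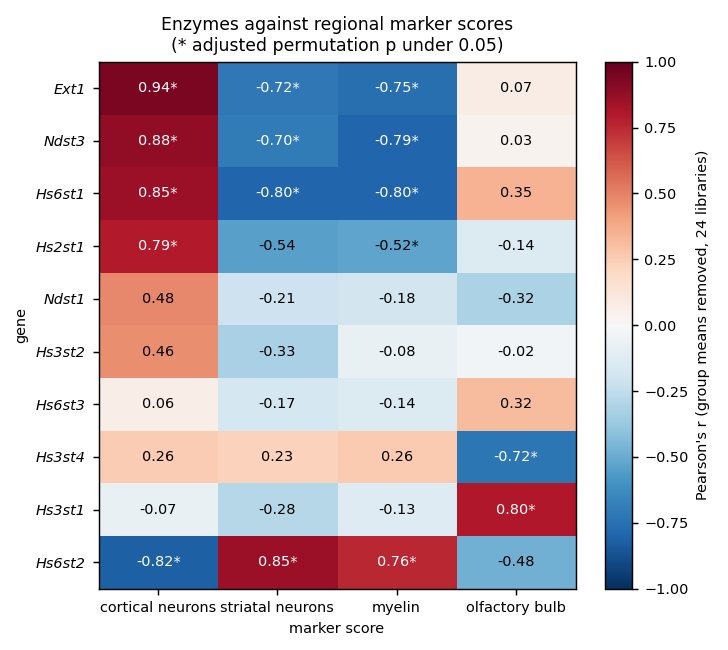
Pearson's r of each enzyme (rows) with each regional marker score (columns) over 24 libraries with group means removed; colour runs from -1 (blue) to 1 (red), and asterisks mark an adjusted permutation p under 0.05. Ext1, Ndst3, Hs6st1 and Hs2st1 are red in the cortical column, Hs6st2 is red in the striatal column, and no cell of Hs6st3 or Ndst1 has an asterisk.

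**Figure D5:**
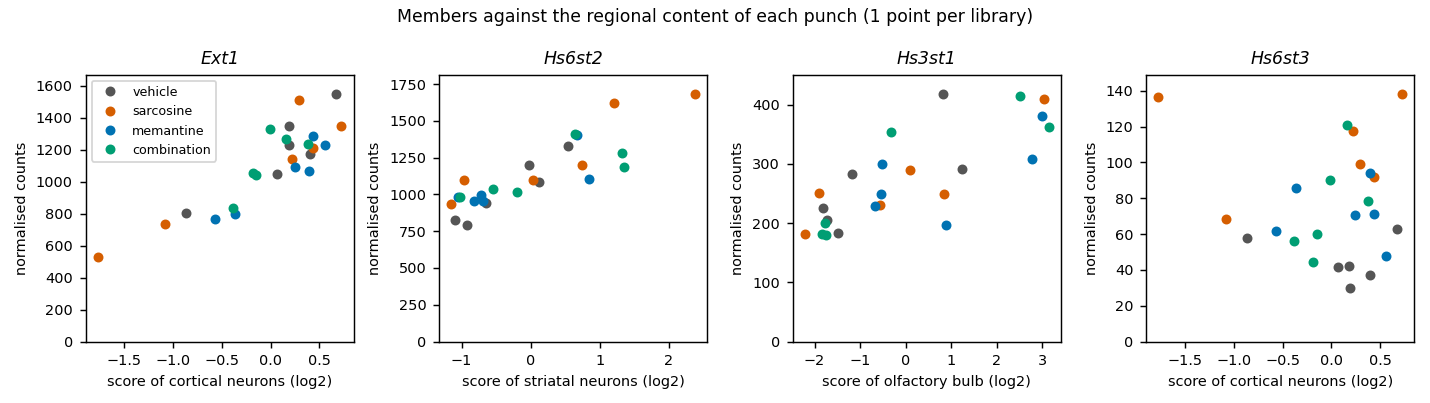
Normalised counts (vertical axes) of Ext1, Hs6st2, Hs3st1 and Hs6st3 against a regional marker score on the log2 scale (horizontal axes), 1 point per library, coloured by group. Ext1, Hs6st2 and Hs3st1 climb along their scores in every group. For Hs6st3, with group means removed, r with the cortical score was 0.06. It was 0.39 without the 2 libraries farthest from the median score. The sarcosine points of Hs6st3 lie at 137 and 68.4 at the low end of the score and at 138 at its high end.

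Members that followed the same region also followed each other. With group means removed, r over 24 libraries was 0.93 between Ndst3 and Ext1, 0.87 between Hs6st1 and Ext1 and 0.74 between Hs6st1 and Hs2st1, as a description of libraries that share regional content and depth. Between Hs6st3 and Ndst1 it was 0.40, and 0.73 with group means kept. Among 12297 genes with a mean of at least 50 normalised counts, those whose log2 values over the 24 libraries were most like those of Hs6st3 included Nup153 (r = 0.86), a nuclear pore protein, Setd2 (0.86), a histone methylating enzyme, Gtf3c1 (0.86), a subunit of transcription factor IIIC, and Wapl (0.86), a cohesin release factor. These 4 had their highest group mean in sarcosine and their lowest in vehicle, such as 888 ± 94.9 against 605 ± 50.6 normalised counts for Nup153. That order follows largely from the choice, since Hs6st3 itself had it and group means were kept. With group means removed the 5 nearest were Rel (r = 0.84), an NF-kappaB subunit, B3galt1 (0.79), a galactosyltransferase, Zfp281 (0.75), Tmf1 (0.75) and Arcn1 (0.75), a coatomer subunit, and none of those 4 remained among them.

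The wider pathway was described with 72 other genes, of which 70 were tested; Hs3st6 and Hpse2 were too low. In sarcosine against vehicle, 2 of the 70 passed, both with higher levels, where 9.34% of all genes passed in either direction. Of the 70, 45 were above 0, with a median log2 difference of 0.06, beside -0.0032 over all genes. Glce, the epimerase that makes iduronic acid, rose from 557 ± 66.1 to 690 ± 69.5 normalised counts, a log2 difference of 0.31 (SE 0.08, limma adjusted p = 0.019). Fam20b, the kinase that phosphorylates the xylose of the linker between core protein and chain, rose from 1681 ± 105 to 1913 ± 141, a log2 difference of 0.19 (SE 0.05, limma adjusted p = 0.029). Both calls ended when transcript length and GC content were corrected for (adjusted p = 0.29 for Glce and 0.64 for Fam20b) and with regional scores as covariates (0.12 and 0.099). Fam20b was lower in the combination, at 1585 ± 77.1. For the interaction, where 1.82% of all genes were called, it was the only pathway gene called (log2 -0.29, SE 0.08, limma adjusted p = 0.048). That call held in 10 of 37 alternatives; among others, it was lost with TMM scaling, with edgeR and after correction for length and GC content (adjusted p = 0.51). None of the 70 passed in memantine or the combination against vehicle or in the combination against either drug alone.

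In the remaining lists none passed in any comparison, and the gene with the smallest p is given for 5 of them. Among the exostosins it was Extl3, which starts the chain, with a log2 difference of -0.22 for the combination against sarcosine (limma adjusted p = 0.67). Among the editing enzymes it was Sulf1, which removes 6-O-sulfate outside the cell, with 0.21 for memantine against vehicle (adjusted p = 0.63). Among the precursor enzymes it was Ugp2, which makes UDP-glucose, with -0.27 for the combination against vehicle (adjusted p = 0.075), from 1289 ± 94.9 to 1070 ± 102 normalised counts. Among the 14 core proteins it was the glypican Gpc6, with 0.45 for sarcosine against vehicle (adjusted p = 0.064), and 9 of the 14 were above 0. Among 18 binding partners, which include fibroblast growth factor receptors, Slit and Robo proteins and neurexins, it was Slit2, with -0.44 for the combination against sarcosine (limma adjusted p = 0.30). Between sarcosine and vehicle 15 of the 18 were above 0, with a median of 0.16, beside -0.0032 over all genes. These values were not corrected for transcript length, and the part of the length trend in them was not tested.

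Enzymes of the sister chain, chondroitin and dermatan sulfate, were set beside these. Of 16 genes 15 were tested. Between sarcosine and vehicle 2 passed, both with higher levels, where 9.34% of all genes passed in either direction. Chst15, which makes the doubly sulfated chondroitin sulfate E unit, rose from 721 ± 38.4 to 949 ± 46.9 normalised counts (log2 0.40, SE 0.07, limma adjusted p = 0.0015), with 765 as the highest vehicle and 878 as the lowest sarcosine library. Of all genes 4.11% were separate in that comparison. The call of Chst15 was also examined under 2 alternatives. Chst15 still passed after correction for length and GC content (log2 0.30, limma adjusted p = 0.020) and with regional scores as covariates (0.38, adjusted p = 0.035). Chpf2, a chondroitin polymerising factor, rose from 381 ± 64.8 to 497 ± 64.5 (log2 0.39, SE 0.12, limma adjusted p = 0.037), a call that ended under both of these (adjusted p = 0.24 and 0.11). In the other comparisons none of the 15 passed.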

How the data were processed

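Total RNA of frozen frontal cortex punches was sequenced from NEBNext Ultra II libraries, per the labels' protocols. The submitters' processing notes name FastQC, STAR, featureCounts 1.6.0, DESeq2 1.42.1 and the mm39 build. The deposited values are a signal per gene, the counts of the authors divided by a size factor per library; 100% of the values in each library came out as whole reads (tolerance 0.01), on which edgeR called 1615 and DESeq2 2170 genes between sarcosine and vehicle. Depth is the sum of these reads, and p-values measure the spread between libraries. Transcript lengths and GC content, for 16287 of 16578 tested genes (98.2%), came from GENCODE vM21, on another build than the mm39 of the files; the coordinates printed are those of RefSeq promoter windows on GRCm38.p6 and are not set against any position of the files.

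Genes with at least 10 normalised counts in at least 6 libraries were tested with limma 3.58.1 (R 4.3.3; empirical Bayes with trend) on log2(value + 1), in one model of 4 group means; fold changes on that scale understate low genes. A gene was called at a two-sided adjusted p under 0.05. Regional scores are means of centred log2 values of marker lists. Permutations used 100000 resamples, two-sided. The limma fit was tested on simulated counts for sarcosine against vehicle. The other steps were not tested in this way. The main model did not pair libraries by replicate number, and a replicate block is among the alternatives. The members and lists were chosen with earlier results of these data known; the genes named outside the members are those called in a comparison, the lowest p of a list with none, and the 5 nearest to Hs6st3, with no predicted genes. Some genes that this rule or a list names are not reported here. Alternatives (edgeR 4.0.16 and DESeq2 1.42.0 among them) are given at the end.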

Additional observations from a re-analysis of the deposited data

Results flagged for a closer look

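The highest and lowest library of each group was compared with its neighbour for the 10 members and the 4 other genes called (56 groups of 6 libraries; chance alone marks about 1 in 20 groups), and 5 stood apart. Hs6st2 in memantine replicate 2 was 1404 normalised counts, with the nearest library at 1107. Hs3st2 in vehicle replicate 1 was 1954, with the nearest at 1245. Hs3st2 in memantine replicate 6 was 1457, with the nearest at 1156. Fam20b in combination replicate 4 was 1432, with the nearest at 1584. Chpf2 in combination replicate 3 was 648, with the nearest at 460.1. Separately, Fam20b was called for the interaction given above, at a log2 value of -0.29. That call held in 10 of 37 alternatives.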

How the results depend on the processing

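Over the 26 alternatives for sarcosine against vehicle, which all reuse the libraries the pathway was selected on and so give no support of their own, the log2 difference of Hs6st3 ran from 1.13 to 1.41 and that of Ndst1 from 0.21 to 0.45. After correction for length and GC content 1 member, Hs6st3, was called beside 187 genes in all, and Ndst1 was not. Some smaller differences changed sign: that of Ext1 between sarcosine and vehicle ran from -0.40 to 0.15 and that of Ndst3 from -0.36 to 0.23. For the interaction, 1 member (Hs6st3) was called with a filter of 50, with upper-quartile scaling and by DESeq2. In these settings 451, 475 and 931 genes were called in all. Regional scores as covariates gave 1 member (Ndst1) beside 510 genes in all, and library weights gave 2 beside 1516. Of the 16 relations to regional scores past the threshold, 15 passed without the farthest libraries and 16 were past it with no group centring. The causes of the shifts below were not tested.

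In the order sarcosine, memantine and combination against vehicle, combination against sarcosine and against memantine, and interaction, the main analysis called 1548, 2, 90, 0, 9 and 301 genes. The counts that moved by over 1.5 times were these. With no filter, 989 genes were called between sarcosine and vehicle, 12 for the combination against vehicle, 4 for the combination against memantine and 0 for the interaction. With the filter of 50 they were 142 for the combination against vehicle and 5 for the combination against memantine. With upper-quartile scaling they were 22 for memantine and 475 for the interaction. With only the groups compared in the fit they were 980 for sarcosine, 1 for the combination against vehicle and 4 for the combination against memantine. After correction for length and GC content they were 187, 1, 5, 14 and 0, with the combination against sarcosine left out of the order. With regional scores as covariates they were 631, 9, 5, 2, 32 and 510 in the full order. With library weights they were 3149, 421, 328, 27, 30 and 1516. With DESeq2 they were 430, 499, 45, 61 and 931 from memantine onwards. Without the 4 libraries that stood apart, an alternative chosen after seeing the data, the 3 comparisons with vehicle gave 2371, 1 and 495; 3 members were then called between sarcosine and vehicle and 1 (Ndst1) for the combination.

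Replicate numbers were shared between groups, and the values do not settle whether they pair the libraries. For deviations from the group means, the median r was 0.11 over 36 same-numbered pairs (-0.75 to 0.73). Over 180 other pairs it was -0.016. An r over 0.1 was found in 18 of the same-numbered and 76 of the other pairs, and 6 of 24 libraries were nearest to one of their own number. With the replicate block, 4 genes were called for memantine, 18 for the combination against vehicle and 131 for the interaction. Between sarcosine and vehicle 1525 genes were then called, 2 of them members.

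Of the other heparan sulfate genes, 2 were called between sarcosine and vehicle; the count was 1 with no filter and with upper-quartile scaling, 0 with only the groups compared, after correction for length and GC content and with regional scores, 4 with the filter of 50 and by edgeR, 6 by DESeq2 and without the libraries that stood apart, and 10 with library weights. For the other comparisons library weights gave 1 each for memantine and the combination against vehicle and for the combination against sarcosine, and DESeq2 gave 1, 2 and 1; leaving out the libraries that stood apart gave 1 for the combination against vehicle. For the interaction, the single call of Fam20b became 0 with no filter, upper-quartile scaling, TMM scaling, the replicate block, the length and GC correction and edgeR, and 2 with library weights. DESeq2 and library weights also gave 1 member each, for the combination and for memantine against vehicle, beside 499 and 421 genes in all.

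With each library left out in turn, genes called ranged from 1078 to 1936 for sarcosine, 1 to 17 for memantine, 1 (without vehicle replicate 6) to 361 (without combination replicate 1) for the combination against vehicle, 0 to 14 for the combination against sarcosine, 3 to 51 for the combination against memantine and 0 (without sarcosine replicate 2) to 983 (without combination replicate 6) for the interaction. Members called ranged from 2 to 2 for sarcosine and 0 to 2 for the interaction, where Hs6st3 was called without sarcosine replicate 4 or combination replicate 6. Other heparan sulfate genes called ranged from 1 to 6 for sarcosine (6 without sarcosine replicate 4), 0 to 1 for the combination against vehicle and 0 to 1 for the interaction. At a mean of 45.1 normalised counts in vehicle, Hs6st3 is the member that counting error limits most.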
